A study of Homo sapiens with 4 samples.

Results

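Peroxiredoxins, thioredoxin, glutathione peroxidases and copper-zinc superoxide dismutase form the main enzymatic defence of a cell against hydrogen peroxide, lipid peroxides and superoxide. Described here are 10 such genes, chosen by symbol: the peroxiredoxins PRDX1, PRDX2, PRDX3, PRDX4, PRDX5 and PRDX6, the thioredoxin TXN, the glutathione peroxidases GPX1 and GPX4, and the superoxide dismutase SOD1. All 10 are among the 11597 genes in the authors' deposited table. The samples are MOLM13 cells, a human acute myeloid leukaemia line, transduced by lentivirus with a BTG2 cDNA (genotype label BTG2 OE, 2 libraries) or with the empty vector (genotype label WT, 2 libraries). The lentiviral vector places puromycin resistance and the green fluorescent protein ZsGreen behind an EF1α promoter. No step of selection or sorting is mentioned in the labels, and cells were collected 3 days after transduction. All libraries shared polybrene at 5 µg/mL, a spin at 1500 RCF for 60 min, a temperature of 32 °C and 10% serum. BTG2 is an antiproliferative adaptor that recruits the CCR4-NOT deadenylase to mRNA, and the submitters set out to determine its role in mRNA stability.

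Superoxide dismutases turn superoxide into hydrogen peroxide, which peroxiredoxins and glutathione peroxidases then reduce. A peroxiredoxin attacks peroxide with a cysteine, the peroxidatic cysteine. In most of the 2-Cys enzymes, PRDX1 to PRDX5, the resulting disulfide is reduced by a thioredoxin, whereas PRDX6, the 1-Cys enzyme, uses glutathione. GPX1 and GPX4 carry selenocysteine in that place, encoded by a UGA codon that is read through with the help of a structure in the 3′ untranslated region. In leukaemic cells these enzymes handle peroxide from respiration and from the oxidases of the myeloid lineage.

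The catalytic codons show what these enzymes share and where they differ. Each line below is coding sequence on the sense strand of the principal transcript in GENCODE release 29, with the codon or codons of the catalytic residues in capitals. The flanks are 15 bases on each side.
PRDX1: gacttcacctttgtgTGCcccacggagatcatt
PRDX2: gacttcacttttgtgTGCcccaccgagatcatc
PRDX3: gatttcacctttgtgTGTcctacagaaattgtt
PRDX4: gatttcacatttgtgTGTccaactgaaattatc
PRDX5: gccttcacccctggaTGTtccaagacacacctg
PRDX6: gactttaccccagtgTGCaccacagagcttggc
TXN: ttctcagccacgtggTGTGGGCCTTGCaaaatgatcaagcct
GPX1: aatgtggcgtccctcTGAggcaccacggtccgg
GPX4: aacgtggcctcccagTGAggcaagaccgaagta

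The cysteine codon is number 52 in PRDX1, 51 in PRDX2, 108 in PRDX3, 124 in PRDX4, 100 in PRDX5 and 47 in PRDX6, counted from the start codon. Over the 33 bases shown, PRDX1 and PRDX2 were identical at 30, PRDX3 and PRDX4 at 28, and PRDX4 and PRDX5 at 15, the lowest of the 15 pairs. The TXN stretch codes for the paired cysteines of its active site from codon 32. In GPX1 and GPX4 the capitals are an in-frame TGA of the release's coding sequence, codon 49 in GPX1 and codon 73 in GPX4. This codon was found by translation and taken as the selenocysteine codon.

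With BTG2 overexpression, 7 of the 10 transcripts fell and 0 rose at an adjusted p under 0.05 in the authors' deposited table. They were PRDX1, PRDX2, PRDX3, PRDX5, GPX1, GPX4 and SOD1, and they were lower by 14.6% to 24.7% than with the empty vector. PRDX4, PRDX6 and TXN did not pass the test and lay close to 0 on the log2 scale. At an unadjusted p under 0.05, 7 members were lower and 0 higher in the authors' deposited table, made with a program that the sources used here do not name. The share of all listed genes at an unadjusted p under 0.05 was not computed, here or for the lists below. Of all listed genes, 8.11% passed the adjusted p under 0.05 in either direction, 3.64% higher and 4.47% lower. The median log2 fold change was -0.28 over the 10 genes and 0.00 over all listed genes.

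Each value is the authors' own fit of BTG2 OE over WT libraries, with its standard error (SE), and values per library were not analysed here. How many libraries showed a direction is therefore unknown. Nothing in the labels says that the 2 libraries of a group were separate cultures, and the p-values then measure the spread between libraries only, which may be technical. The 95% intervals below were computed from the SE on a normal scale. A lower value can come from less RNA per cell, from less capture of the RNA by its poly(A) tail or from fewer cells with the RNA. These cannot be told apart in bulk poly(A) RNA.

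**Figure D1:**
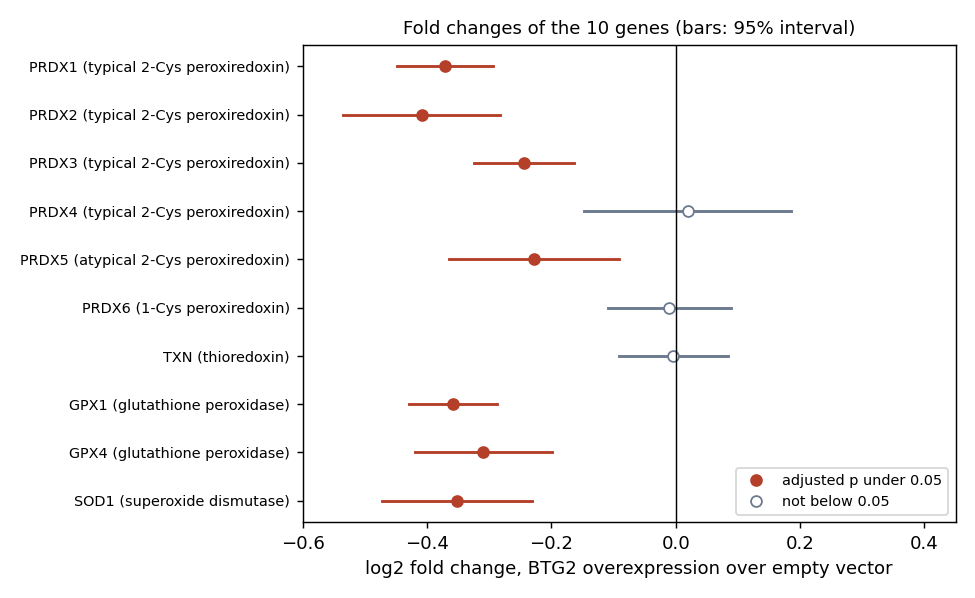
Log2 fold change (horizontal axis) of the 10 genes, BTG2 overexpression over empty vector, from the authors' deposited table, with 95% intervals as bars. Filled points passed an adjusted p under 0.05; all 7 lie between -0.41 and -0.23, and the open points of PRDX4, PRDX6 and TXN lie between -0.01 and 0.02.

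BTG2 itself checks the labels. Its log2 fold change was 5.01 (SE 0.09) in the authors' deposited table, so the libraries labelled BTG2 OE carried the higher level. The line's labelled origin was also checked against 7 myeloid markers, which were all listed, with mean normalized counts from 104 to 6277. Among these markers MPO (-1.14), LYZ (-0.39) and CEBPA (-0.26) were called lower and FLT3 (0.23) higher on the log2 scale in the authors' deposited table, while CD33, SPI1 and ITGAM did not pass. The part of this change in the fall of the antioxidant genes was not tested. Of 10 markers of T, B, erythroid, epithelial and fibroblast cells only KRT18 was listed, at 421.

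Of the 4 typical 2-Cys peroxiredoxins, PRDX1, PRDX2 and PRDX3 fell and PRDX4 did not pass. PRDX1, the abundant cytosolic peroxiredoxin, lies on chromosome 1 (hg38, 45511036 to 45523047, minus strand) and its cysteine codon is in exon 3 of 6. PRDX1 had, in the authors' deposited table, a log2 fold change of -0.37 (SE 0.04, adjusted p = 1.64e-18) at a mean normalized count of 5287. This is a level 22.6% lower with BTG2 OE than with the empty vector, with an interval on the log2 scale from -0.45 to -0.29.

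PRDX2, another cytosolic member and well known from red blood cells, lies on chromosome 19 (12796820 to 12801859, minus strand). Its log2 fold change in the authors' deposited table was -0.41 (SE 0.06, adjusted p = 2.11e-08), at a mean normalized count of 2205. It had the lowest fold change of the 10 genes, 24.7% below the empty vector, although its interval of -0.53 to -0.28 holds the values of PRDX1, GPX1, GPX4 and SOD1. The gene lies within the span of HOOK2 on the same strand, so reads of the overlap are uncertain. HOOK2 had a mean normalized count of 55.8 and did not pass, at -0.42 (SE 0.29) on the log2 scale, in the authors' deposited table.

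PRDX3 is the mitochondrial peroxiredoxin, made from a gene on chromosome 10 (119167703 to 119178833, minus strand). The authors' deposited table gives a log2 fold change of -0.24 (SE 0.04, adjusted p = 1.44e-07) at a mean normalized count of 5444. Its interval, -0.32 to -0.16, overlaps that of PRDX1, and it was 15.6% below the empty vector.

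PRDX4, the secretory-pathway member that oxidises proteins in the endoplasmic reticulum, lies on the X chromosome (23664262 to 23686399, plus strand). It did not pass in the authors' deposited table, with a log2 fold change of 0.02 (SE 0.09, adjusted p = 0.968) at a mean normalized count of 732. The interval of -0.15 to 0.19 has no overlap with those of PRDX1, PRDX2 or PRDX3. Its SE was the largest of the 10 genes, and its codon sequence above is nearest to that of PRDX3.

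The atypical PRDX5, found in mitochondria, peroxisomes and cytosol, lies on chromosome 11 (64318088 to 64321811, plus strand). In the authors' deposited table PRDX5 stood at -0.23 (SE 0.07, adjusted p = 0.0178) on the log2 scale, at a mean normalized count of 1260. This smallest of the 7 falls, 14.6%, is also the least firm, at 3.27 times its SE. Its interval runs from -0.36 to -0.09, and the call was lost when the null was fitted to the central test statistics of all genes.

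PRDX6 combines peroxidase and phospholipase activities and lies on chromosome 1 (173477266 to 173488807, plus strand). Its log2 fold change was -0.01 (SE 0.05, adjusted p = 0.972) at a mean normalized count of 2777 in the authors' deposited table. The interval from -0.11 to 0.09 lies above the point value of every gene that fell. TXN, the cytosolic thioredoxin that recycles cytosolic 2-Cys peroxiredoxins, lies on chromosome 9 (110243811 to 110256640, minus strand). Its log2 fold change was 0.00 (SE 0.04, adjusted p = 0.991), at a mean normalized count of 3514, in the authors' deposited table. A fall of the size seen in PRDX1 lies outside the interval of TXN, which runs from -0.09 to 0.08. Differences between members were not tested, since their fold changes come from the same libraries.

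Both selenium-dependent peroxidases fell. GPX1, which reduces soluble hydroperoxides with glutathione, is a compact gene of 2 exons on chromosome 3 (49357171 to 49358600, minus strand) with its TGA codon in exon 1. In the authors' deposited table GPX1 had a log2 fold change of -0.36 (SE 0.04, adjusted p = 8.64e-21), 0.780 times the level with the empty vector. At a mean normalized count of 8327 it also had the smallest SE of the 10 genes and an interval of -0.43 to -0.29. GENCODE release 29 types this locus as a polymorphic pseudogene with coding transcripts.

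GPX4 reduces lipid hydroperoxides in membranes and is the enzyme that holds off ferroptosis. Its gene is on chromosome 19 (1103926 to 1106791, plus strand), with the TGA codon in exon 3 of 7. The authors' deposited table gives GPX4 a log2 fold change of -0.31 (SE 0.06, adjusted p = 2.30e-06) at a mean normalized count of 4677. The interval of -0.42 to -0.20 overlaps that of GPX1, and the level was 19.3% below the empty vector.

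SOD1, the copper-zinc superoxide dismutase of the cytosol, lies on chromosome 21 (31659622 to 31668931, plus strand). In the authors' deposited table SOD1 had a log2 fold change of -0.35 (SE 0.06, adjusted p = 7.58e-07) at a mean normalized count of 2001. This is 21.6% below the empty vector, with an interval of -0.47 to -0.23.

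The 10 genes have 2 properties in common, abundance and a short coding sequence, and the shares of genes called with each are given here. With mean normalized counts from 732 to 8327 they were measured precisely (SE 0.04 to 0.09, against a median SE of 0.20 over all listed genes), and 9 of them lie in the top 10% of genes by mean count. In that top 10%, 31.6% of 1160 genes were called, 11.3% higher and 20.3% lower, with a median log2 fold change of -0.06. Against this set, 2.67% of genes had a lower log2 fold change than PRDX2 and 14.2% a lower one than PRDX5, and the other 5 genes that fell lie between. For PRDX6 the share was 62.6% and for TXN 64.6%.

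**Figure D2:**
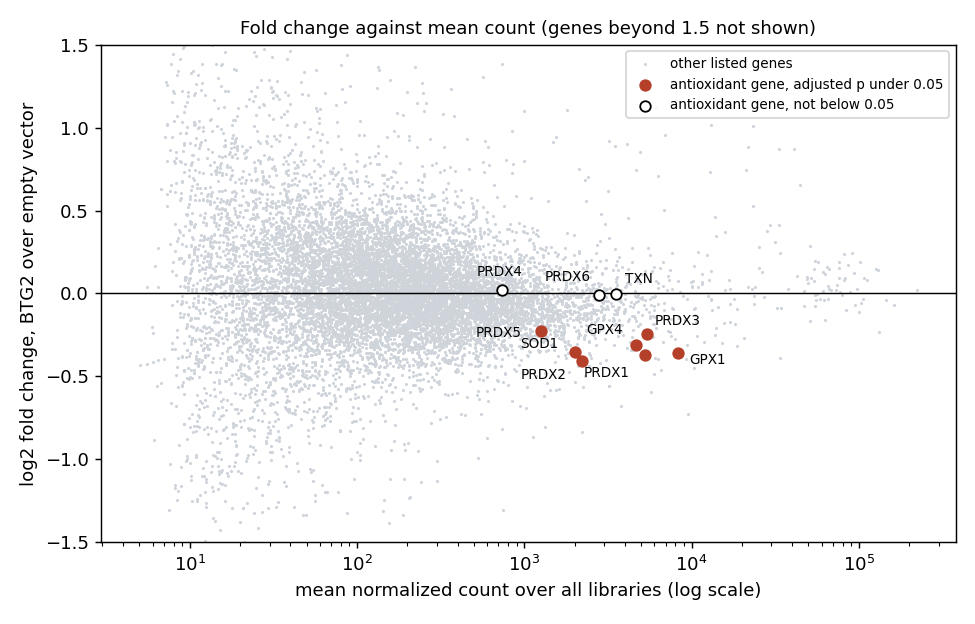
Log2 fold change (vertical axis, BTG2 overexpression over empty vector) against mean normalized count (horizontal axis, log scale) for the genes in the authors' deposited table, with the 10 antioxidant genes marked and genes beyond 1.5 in size not shown. The 7 genes that fell have mean counts from 1260 to 8327 and lie below the zero line, while PRDX4, PRDX6 and TXN lie on it or within 0.02 of it.

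**Figure D3:**
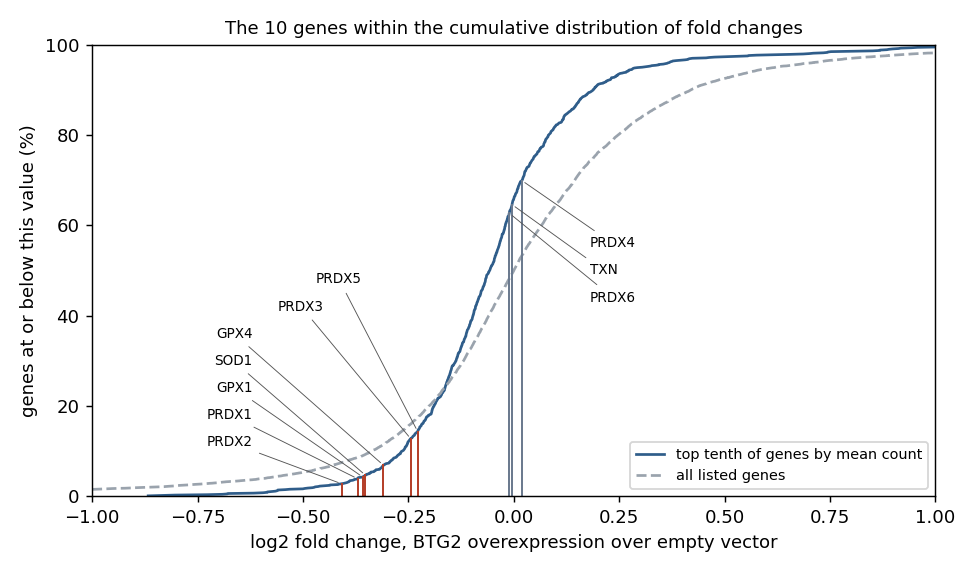
Percentage of genes (vertical axis) at or below each log2 fold change (horizontal axis), for the top 10% by mean count (solid) and all listed genes (dashed). Vertical lines mark the 10 genes; at most 14.2% of the genes of the solid curve lie below any of the 7 that fell, and 62.6% or more lie below each of PRDX4, PRDX6 and TXN.

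They also code for short proteins. Their coding lengths run from 315 bases in TXN to 813 bases in PRDX4, against a median of 1360.5 over the listed genes with a coding model, so all 10 belong to the shortest 25%, with at most 837 bases. Of those 2624 genes 12.1% were called, 8% lower and 4.12% higher, with a median log2 fold change of -0.05. Among the 600 genes that are both in the top 10% by count and in the shortest 25%, 28.8% were called, 20% lower and 8.83% higher. The share called in the whole top 10% by count was 31.6%. The part of abundance or length in the falls was not tested.

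Other genes of the pathway passed at about the rate of the whole table. Of 88 genes in 6 fixed lists 79 were listed, of which 5 fell and 2 rose in the authors' deposited table. This is 8.86%, beside 8.11% of all listed genes, and the median log2 fold change was -0.08. Their median SE was 0.14, at a median mean normalized count of 315, so small changes were harder to detect than in the 10 genes. Over all listed genes these medians were 0.20 and 151, so the shares called compare genes of unlike count. Whether the lists and the 10 genes differ was not tested.

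In the thioredoxin list, 0 of 14 genes passed in either direction, with a median of -0.10, while at an unadjusted p under 0.05 it had 4 lower and 1 higher. The higher one was TXNIP, which binds and inhibits thioredoxin and had 0.13 in the authors' deposited table (SE 0.05). Recentring fold changes on the median gene among those at or above the median mean count called TXNIP higher. The thioredoxin reductase TXNRD1, which keeps TXN reduced, stood at -0.03 (SE 0.08) on the log2 scale, and the mitochondrial TXN2 at -0.02 (SE 0.07), in the authors' deposited table. TXNDC9 (-0.30, SE 0.11, adjusted p = 0.0957) and the endoplasmic reticulum protein TXNDC12 (-0.28, SE 0.11, adjusted p = 0.0989) came nearest to the threshold in the authors' deposited table.

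The 19 listed glutathione genes had a median of -0.11, and 2 of them fell while 0 rose. At an unadjusted p under 0.05 there were 4 lower and 1 higher. CHAC1, an enzyme of the integrated stress response that degrades glutathione, fell by 0.79 on the log2 scale in the authors' deposited table (SE 0.18, adjusted p = 0.000491). GSTP1, a glutathione transferase, fell by 0.14 in the authors' deposited table (SE 0.05, adjusted p = 0.0475), a call lost on the same recentring. GPX7, a peroxidase of the endoplasmic reticulum with cysteine in place of selenocysteine, had -0.42 in the authors' deposited table (SE 0.15, adjusted p = 0.0522), and the transferase GSTK1 -0.15 (SE 0.06, adjusted p = 0.161). The glutathione synthesis genes GCLC (-0.11, SE 0.25), GCLM (-0.44, SE 0.26) and GSS (-0.12, SE 0.11) did not pass in the authors' deposited table.

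CCS, SOD2 and CAT were not called. CCS, the chaperone that delivers copper to SOD1, had a log2 fold change of -0.32 in the authors' deposited table (SE 0.18, adjusted p = 0.342) and SOD2, the mitochondrial manganese enzyme, one of 0.27 (SE 0.16, adjusted p = 0.396). Catalase, CAT, stood at 0.09 (SE 0.08) in the authors' deposited table. Of the 9 listed genes in the list for superoxide and peroxide removal 0 passed in either direction, also at an unadjusted p under 0.05. Their median was 0.06. That list also holds the methionine sulfoxide reductases MSRA, MSRB1, MSRB2 and MSRB3 and the thioredoxin-related TMX1.

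The regulators and targets of NRF2, the transcription factor that drives many antioxidant genes, mostly did not pass. Of 17 listed genes 1 fell and 2 rose, which is 17.6% beside 8.11% of all listed genes. Their median log2 fold change was -0.03. FTL, the ferritin light chain that stores iron, fell by 0.27 in the authors' deposited table (SE 0.03, adjusted p = 2.47e-21), whereas its partner FTH1 had -0.09 (SE 0.04, adjusted p = 0.112). CUL3, the ubiquitin ligase scaffold that works with KEAP1, rose by 0.39 in the authors' deposited table (SE 0.12, adjusted p = 0.0279), and MAFG, a small partner of NRF2, by 0.41 (SE 0.14, adjusted p = 0.0345). NFE2L2, the gene of NRF2, stood at -0.03 (SE 0.09) and KEAP1 at -0.12 (SE 0.08), and neither passed in the authors' deposited table.

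Windows from 250 bases before to 50 after the gene start, from RefSeq on GRCh38.p14, were used for 7 of the 10 genes. In these, the core letters TGACNNNGC of the NRF2 element were found in 0 on either strand. The same search found them in 13.6% of all 27305 such windows and in 15.5% of the 9026 windows of listed genes. No window was used for PRDX1, PRDX6 or SOD1, and the difference from these shares was not tested. Matches outside these windows were not looked for.

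Since both glutathione peroxidases need selenocysteine, its synthesis genes were examined too. SEPHS2, which makes selenophosphate and is itself a selenoprotein, fell by 0.29 in the authors' deposited table (SE 0.09, adjusted p = 0.0191), the only one of 10 to pass. SARS1, the seryl-tRNA synthetase, had -0.28 in the authors' deposited table (SE 0.12, adjusted p = 0.183) and the selenocysteine tRNA-associated TRNAU1AP 0.12 (SE 0.20, adjusted p = 0.875). Of 10 other selenoprotein genes only SELENOP, the secreted selenium carrier, fell, with a log2 fold change of -1.67 in the authors' deposited table (SE 0.31, adjusted p = 3.87e-06) at a mean normalized count of 69.5. SELENOH (0.15, SE 0.08) and SELENOK (-0.34, SE 0.18) did not pass in the authors' deposited table, and the medians were -0.02 for the synthesis list and -0.07 for the other selenoproteins.

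**Figure D4:**
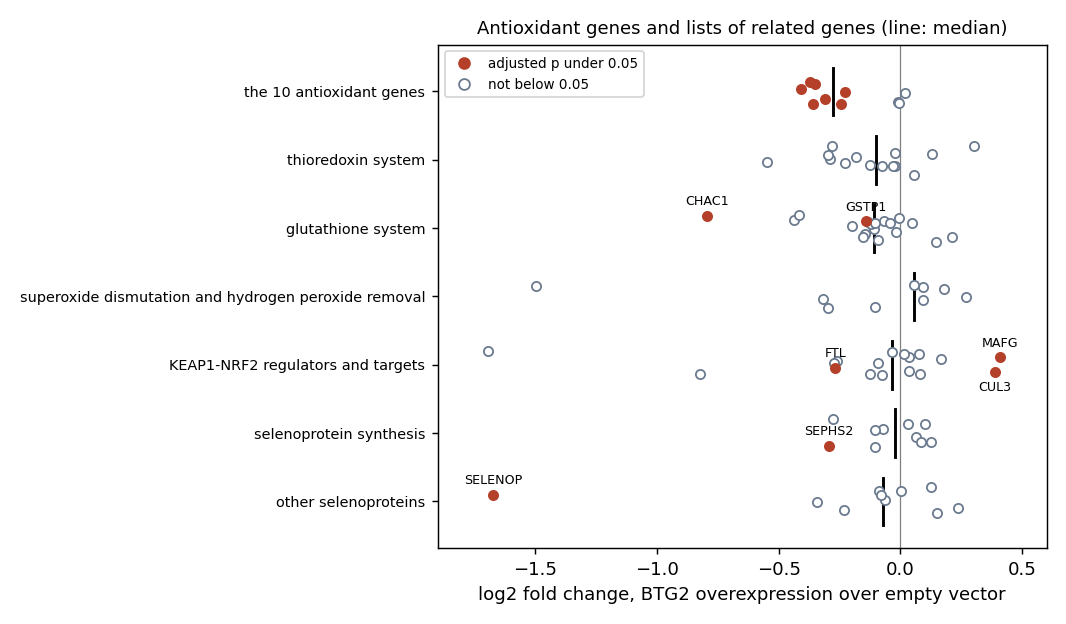
Log2 fold change (horizontal axis, BTG2 overexpression over empty vector) of the 10 antioxidant genes and of 6 lists of related genes (rows), from the authors' deposited table, with a black line at each median. Filled points passed an adjusted p under 0.05; they are 7 of 10 in the top row and 7 of 79 in the lists below, where medians lie from -0.11 to 0.06.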

How the data were processed

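Poly(A) RNA of 2 BTG2-transduced and 2 empty-vector MOLM13 libraries was compared, and groups came from the sample titles. Per the submitters' processing notes, minimap2 and hg38 were used, with no version or role. The labels' protocols describe paired reads of 150 bp, whereas the series title speaks of long reads; the sources used here do not say which was used. The only file is the authors' comparison. Per the file headers, it holds a mean normalized count, a signal pooled over libraries, and log2 fold changes with their standard errors. The deposited score is the fold change over its standard error, and the deposited p-value is adjusted over the 11597 listed genes (Benjamini-Hochberg, recomputed within 1.48e-06). The program, normalization, annotation, filter and use of strand are not stated in those sources, and library depth is unknown.

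A gene was called at the authors' adjusted p under 0.05. Intervals are 1.96 SE wide on each side. Members and lists were chosen with earlier results of these data known. Named genes are the members, BTG2, the called genes of each list, the next 2 by absolute test statistic, and, added after their values were seen, TXNRD1, TXN2, GCLC, GCLM, GSS, CAT, TXNIP, NFE2L2, KEAP1 and HOOK2. One gene that this rule would name is not reported here. Gene models are from GENCODE release 29, which matched 11398 identifiers (98.3%), with APPRIS principal transcripts preferred. It names 22 pseudogenes of members, of which 0 were listed, so reads shared with them are uncertain. MMACHC overlaps PRDX1 on the opposite strand. No proteins were used. The calling rules were run on simulated statistics with normal noise of the deposited SE, which cannot test whether those SE are right. Alternatives were other adjusted p limits, a 1.5-fold minimum, recentring, an empirical null and other adjustments. Computation used Python 3.11.15, numpy 2.4.6, pandas 2.3.3 and scipy 1.17.1.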

Additional observations from a re-analysis of the deposited data

How the results depend on the processing

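Each of the 10 genes was recomputed under 8 alternatives, and 70 of the 80 outcomes kept their side of the threshold. PRDX4, PRDX6 and TXN, with deposited unadjusted p-values from 0.82 to 0.93, were far from the limits and passed under none of them. Part of these outcomes was fixed in advance. The limit of 0.01, the 1.5-fold minimum and the Benjamini-Yekutieli adjustment can only remove calls, and the limit of 0.1 can only add them. Recentring on the median of all genes moved the log2 scale by only 0.00026. Adjusting over abundant genes only kept the deposited p-values. Both left little room for a call to change. Requiring at least a 1.5-fold change left 0 of the 7 falls, since PRDX1 (-0.37), PRDX2 (-0.41), PRDX3 (-0.24), PRDX5 (-0.23), GPX1 (-0.36), GPX4 (-0.31) and SOD1 (-0.35) are all smaller on the log2 scale. PRDX5, at -0.23, was also lost at an adjusted p limit of 0.01, where 6 members were called lower. With the empirical null its adjusted p was 0.145, and 0.177 with the Benjamini-Yekutieli adjustment, each with 6 members called lower. The related lists had 3 lower and 0 higher genes at a limit of 0.01 and with the empirical null, and 8 lower at a limit of 0.1. Recentring on the median gene among those at or above the median mean count, whose log2 fold change was -0.03, also called 7 members lower. PRDX5 was only just among them, at an adjusted p of 0.049. Recentring on the top 10% by mean count, whose median was -0.06, was not done. The recentring that was done turned PRDX6 and TXN, which did not pass, to 0.0162 and 0.0227 on the log2 scale. It gave the related lists 4 lower and 3 higher genes, with TXNIP added and GSTP1 lost. Over all genes it turned the split to 500 higher and 433 lower, against 422 and 518 as deposited. At a limit of 0.01 it was 281 higher and 341 lower, with the empirical null 209 and 262, and with the Benjamini-Yekutieli adjustment 237 and 298. No paired analysis was possible because the table holds no values per library, and for the same reason no replicate could be left out in turn.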
